A study of Mus musculus with 14 samples.

Results

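ChIP-seq of MyoD and MyoG, which switch on muscle genes, was carried out in muscle stem cells, and peaks lying at large families of repeated, closely related genes were examined here. These families are the immunoglobulin V segments (Ighv, Igkv, Iglv), olfactory receptors (Olfr), vomeronasal receptors (Vmn1r, Vmn2r), defensins (Defa, Defb), Speer, Skint, Mup, Ssty, Klra and Prame genes, and Sp110. Genes were chosen by name among those to which the authors assigned at least 1 listed peak, so that having a peak is how they were selected and is not a result. They numbered 123 of 4384 named genes, with 338 of 10303 peaks and 221 of the 6557 regions obtained by merging overlapping peaks over the 12 lists. Of the merged regions, 160 had a peak in 1 library, 29 in 2, 31 in 3 and 1 in 5.

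Mice carried the mito-Dendra2 allele, a fluorescent mitochondrial protein, switched on by Pax7-CreERT2, so that Pax7-expressing stem cells and their progeny were marked; the genotype is labelled wild-type in every sample and ages are not given in the sources used here. All animals received tamoxifen (75 mg/kg on 5 days) and then 50 µL of 1.2% BaCl2 in the tibialis anterior muscle to injure it, with saline in the opposite muscle. At 2 days after injury, activated cells (ASC; CD34-, Dendra2+, DAPI-) were sorted from injured and quiescent cells (QSC; CD34+, Dendra2+, DAPI-) from uninjured muscle, and ChIP used an antibody to MyoD or MyoG, giving 4 groups of 3 libraries. The quiescent cells thus came from saline-injected muscle of injured animals, and injury state, CD34 sort and muscle side cannot be told apart. Each library was made from a pool of sorted cells, so a site bound in few cells and a site bound weakly in many cannot be told apart.

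The families differ in how they are used in the body. Immunoglobulin V segments are joined to D and J segments in developing B cells, where a single rearranged copy encodes the variable part of an antibody. Olfactory and vomeronasal receptors are expressed by sensory neurons, usually a single receptor per neuron. Speer and Prame-like genes are known from the germ line, major urinary proteins (Mup) from the liver, Klra receptors from natural killer cells, and defensins from epithelia. Many of these genes sit in tandem arrays of closely similar copies, where a short read can match more than a single place.

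The lists differed greatly in length, from 120 peaks in a QSC MyoG library to 2652 in an ASC MyoD library, and read depth is unknown because the lists hold no read counts. Of genes listed by cell type, 10 of 15 muscle lineage genes had a peak in at least 1 list, all 10 in an ASC MyoD library. ASC MyoG lists held 2 of them, QSC MyoD lists 0 and QSC MyoG lists 1. Of 21 B lineage and immunoglobulin constant genes, 3 had a peak: Pax5 in 3 ASC MyoD libraries, Ebf1 in 1 QSC MyoD library and Iglc2 in 1 ASC MyoG library. Of the leukocyte list 0 of 5 genes, of the natural killer list 1 of 8 (Gzma), of the olfactory neuron list 1 of 6 (Lhx2) and of the vomeronasal list 1 of 3 (Gnai2) had a peak. A peak reports binding and not expression, so these counts do not measure how many such cells were sorted. Muscle genes are those that MyoD and MyoG switch on, so their peaks do not check the cell type. The ASC MyoD lists held 7210 of the 10303 peaks, and the share over all genes is not given beside these counts.

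Few of the promoter windows of these genes lay under a peak, and 3 that did are shown so that the sequence can be read beside the call. RefSeq (GRCm38.p6) gave a promoter window for 56 of the 123 genes and for no Ighv segment. The 250 bases before the gene start are printed 5′ to 3′ for 3 genes whose window lay mostly under a peak, each in a single library, with every E-box (CANNTG, the motif class that MyoD and MyoG recognise) in capitals. Klra17, a gene of the Klra family (chr6:129876673-129876922, minus strand), had all 250 bases under a peak of ASC MyoG replicate 2. Olfr1253, an olfactory receptor (chr2:89752827-89753076, minus strand), had 184 bases under a peak of QSC MyoD replicate 2. Vmn1r235, a vomeronasal receptor (chr17:21260177-21260426, plus strand), had 142 bases under a peak of ASC MyoG replicate 1.
Klra17: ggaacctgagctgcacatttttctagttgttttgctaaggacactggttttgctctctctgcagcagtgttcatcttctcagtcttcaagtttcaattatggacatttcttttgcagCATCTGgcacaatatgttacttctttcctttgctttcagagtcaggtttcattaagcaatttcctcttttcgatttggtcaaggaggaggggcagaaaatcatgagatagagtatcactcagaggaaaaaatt
Olfr1253: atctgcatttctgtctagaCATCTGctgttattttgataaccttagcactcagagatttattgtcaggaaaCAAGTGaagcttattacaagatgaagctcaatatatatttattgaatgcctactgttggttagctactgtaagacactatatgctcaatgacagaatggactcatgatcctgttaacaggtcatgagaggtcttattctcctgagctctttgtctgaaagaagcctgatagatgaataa
Vmn1r235: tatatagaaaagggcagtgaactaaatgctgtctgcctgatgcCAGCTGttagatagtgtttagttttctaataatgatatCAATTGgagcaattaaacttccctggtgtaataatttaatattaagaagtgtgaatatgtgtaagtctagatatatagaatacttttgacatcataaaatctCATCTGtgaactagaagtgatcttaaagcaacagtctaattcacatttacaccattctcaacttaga

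These windows held 1, 2 and 3 E-boxes, and Vmn1r235 held 1 CAGCTG. Not all lay under the peak: CATCTG of Olfr1253 and both CAGCTG and CAATTG of Vmn1r235 were in the part outside it. In a search of the 250-base windows, CANNTG, which reads the same on both strands, was found in 44 of the 56 windows (78.6%). It was found in 74.3% of the 1400 windows of these families, with or without a peak, and in 66.0% of 27025 RefSeq promoters. Its symmetric form CAGCTG was found in 6 (10.7%), in 5.79% of the family windows and in 12.8% of all. The form CACCTG, searched on both strands, was found in 8 (14.3%), in 11.8% of the family windows and in 17.1% of all. Both forms are also CANNTG, so the counts overlap, and they describe letters and not binding sites.

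The repeated nature of the families was visible in the same windows. A second promoter of at least 90% identity over at least 200 bases was found for 20 of the 56 genes (35.7%), for 25.5% of the 1400 genes of these families with a window and for 6.25% of 25625 genes outside them. Speer4e, a spermatogenesis-associated gene with a peak in 5 libraries, had 22 such copies. It is shown beside its closest copy, Speer4c, from which it differs at 4 of 250 positions, in capitals (98.4% identical; chr5:14938476-14938725 and chr5:15714272-15714521, both minus strand).
Speer4e: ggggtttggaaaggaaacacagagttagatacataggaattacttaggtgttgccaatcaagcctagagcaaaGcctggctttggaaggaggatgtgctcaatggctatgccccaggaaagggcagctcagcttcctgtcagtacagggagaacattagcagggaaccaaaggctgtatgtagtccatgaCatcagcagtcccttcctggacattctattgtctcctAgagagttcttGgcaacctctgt
Speer4c: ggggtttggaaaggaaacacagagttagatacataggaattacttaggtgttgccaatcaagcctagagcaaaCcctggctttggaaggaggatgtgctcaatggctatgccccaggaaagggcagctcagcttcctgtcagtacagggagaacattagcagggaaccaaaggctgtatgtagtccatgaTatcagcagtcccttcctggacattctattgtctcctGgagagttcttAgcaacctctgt

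How reads that match several copies were handled is not given in the sources used here, and the part of such reads in any value reported here was not tested. All 14 Mup and all 10 Speer windows had a copy by this measure, against 104 of 944 Olfr windows (11.0%) and 0 of 11 Skint windows.

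Peaks at these genes made up very different shares of the lists. The ASC MyoD lists held 9, 9 and 8 of them (replicates 1 to 3) and the ASC MyoG lists 91, 94 and 92. The QSC MyoD lists held 9, 7 and 4, and those of QSC MyoG 4, 5 and 6. The number in ASC MyoG therefore exceeded that in every other library, and it hardly varied between replicates while the lists held 916, 605 and 639 peaks. As a share of the list, ASC MyoD gave 0.339%, 0.398% and 0.348% (mean 0.362% ± 0.0315, SD, n = 3). ASC MyoG gave 9.93%, 15.5% and 14.4% (13.3% ± 2.96), QSC MyoD 5.26%, 5.04% and 2.30% (4.20% ± 1.65), and QSC MyoG 3.33%, 3.09% and 3.59% (3.34% ± 0.253). The ASC MyoD libraries were lower than all others and the ASC MyoG libraries higher than all others, with no overlap between groups except between the QSC groups.

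**Figure D1:**
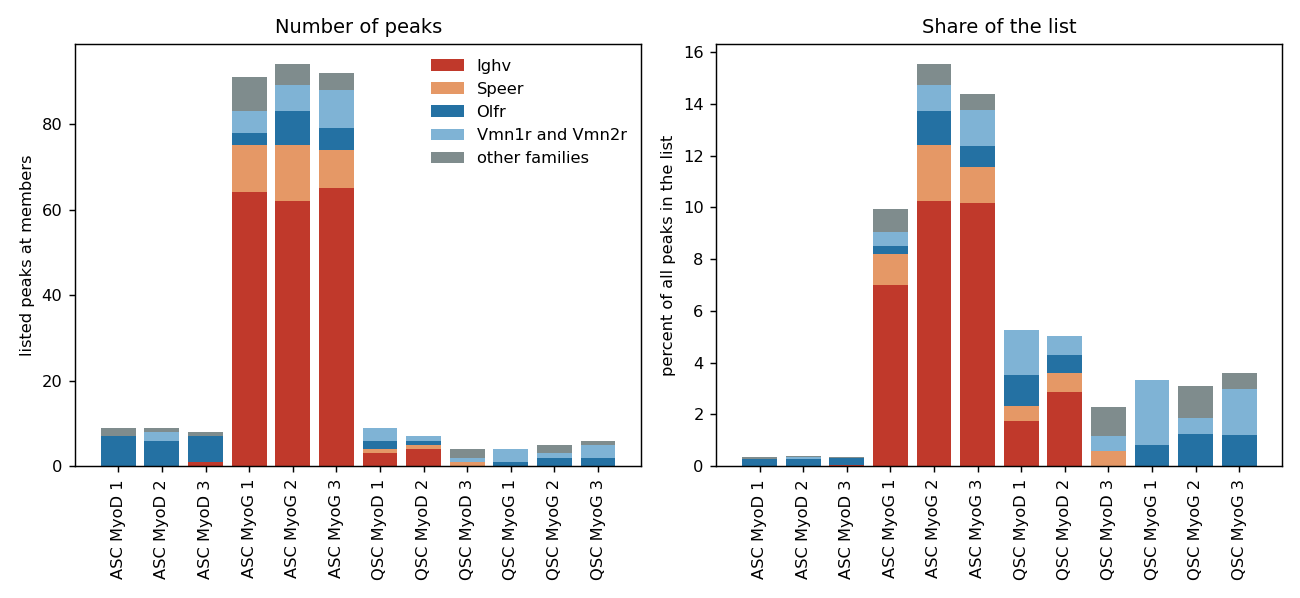
Peaks at the multi-copy genes in each of the 12 lists, as a number (left) and as a percent of all peaks in the list (right), stacked by gene family. The ASC MyoG libraries held 91 to 94 such peaks, of which 62 to 65 were at Ighv segments.

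Between states the shares moved in opposite directions for the 2 factors. For MyoD the share was lower in ASCs than in QSCs (ASC minus QSC, -3.84 percentage points), and for MyoG it was 9.95 points higher. With 3 libraries against 3 no exact test can go below 0.1, and no test was made because the genes were chosen with results known. The MyoG difference depended on the immunoglobulin V and Speer genes. Without the immunoglobulin segments the ASC MyoG libraries gave 2.73%, 5.29% and 4.23% and overlapped QSC MyoG, whose shares stayed at 3.33%, 3.09% and 3.59%. The peaks left out stayed in the list totals. With the Speer genes left out as well, ASC MyoG gave 1.53%, 3.14% and 2.82%, and the difference turned to -0.842 points, with libraries that overlapped. Without the immunoglobulin segments the ASC MyoD share (0.305% to 0.398%) still lay under that of QSC MyoD (2.16% to 3.51%). The ASC MyoD lists were also the longest, at 2262 to 2652 peaks against 139 to 174 in QSC MyoD, and the part of list length in the share was not tested.

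The genes with a peak were a small part of most families. By number, Ighv led with 39 of 183 annotated segments, followed by Olfr with 37 of 1428 genes and Vmn2r with 15 of 272. Vmn1r had 11 of 373, Mup 6 of 22, Prame 6 of 49 and Speer 3 of 15. Igkv had 2 of 162, Klra 2 of 16, Defa 1 of 40 and Defb 1 of 43. As a share of annotated genes, Mup (27.3%) stood above Ighv (21.3%). Having a peak was how genes were chosen, and the share over all annotated genes is not given here, so these counts are a description only. Iglv (3 genes), Sp110 (1), Skint (11) and Ssty (2) had no peak. Peaks were spread as unevenly: Ighv held 199, Olfr 43, Speer 36, Vmn2r 19, Vmn1r 15, Mup 8, Prame 6, Klra 5, Defb 3, Defa 2 and Igkv 2. Chromosome 12, the site of Ighv, carried 58.9% of the peaks and chromosome 5, the site of Speer4e and Speer4cos, 10.9%. The others were spread over chromosomes 1 to 4, 6 to 11, 13, 14, 16 to 19 and X, at 1 to 18 peaks each.

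By gene part as annotated by the authors, 198 of the 338 peaks (58.6%) were distal intergenic, 59 lay within 1 kb of a start site, 46 at 1 to 2 kb, 17 at 2 to 3 kb, 11 in introns, 4 in other exons and 3 in 3' UTRs. Averaged over libraries, the distal intergenic share was 57.9% in ASC MyoD against 35.8% of other peaks, and 58.9% against 59.3% in ASC MyoG. It was 53.2% against 55.0% in QSC MyoD and 63.3% against 55.0% in QSC MyoG. The share within 3 kb of a start site was 42.1% against 22.4% in ASC MyoD and 35.7% against 12.4% in ASC MyoG. Quiescent libraries gave 43.1% against 12.7% for MyoD and 25.6% against 7.20% for MyoG, on 4 to 9 multi-copy peaks each. Measured against the RefSeq span of the assigned gene, 273 peaks (80.8%) lay within 10 kb and 61 overlapped it.

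The V segments of the immunoglobulin heavy chain locus accounted for most of the peaks at multi-copy genes in ASC MyoG. The 183 segments span 2437 kb (chr12:113572929-116009954). ASC MyoG libraries held 64, 62 and 65 peaks in this span, the QSC MyoD libraries 3, 4 and 0, and ASC MyoD replicate 3 held 1; QSC MyoG libraries held none. The ASC MyoG counts do not overlap those of any other group. Those peaks were 6.99%, 10.2% and 10.2% of the ASC MyoG lists, were assigned to 22, 23 and 23 segments, and covered 65.6, 55.8 and 59.3 kb. No peak in the span was assigned to a gene outside the family.

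Within the locus the ASC MyoG peaks crowded to one end. In the last 1 Mb, which holds 55 of the 183 segments, lay 95.3%, 96.8% and 95.4% of them, and 101 of the 112 merged regions of the locus. Neighbouring peaks were a median of 3.53, 2.71 and 2.82 kb apart. The densest 100 kb, at Ighv8-11, Ighv1-66, Ighv1-67, Ighv1-69 and Ighv8-12, held 21, 23 and 23 peaks in the 3 replicates and fell in the same place each time (chr12:115566916-115663538 in replicate 1). A V segment was rarely under the peak: 10 of 64, 10 of 62 and 7 of 65 peaks overlapped one. The median distance to the nearest V segment, assigned or not, was 2502.5, 3557 and 3269 bp.

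**Figure D2:**
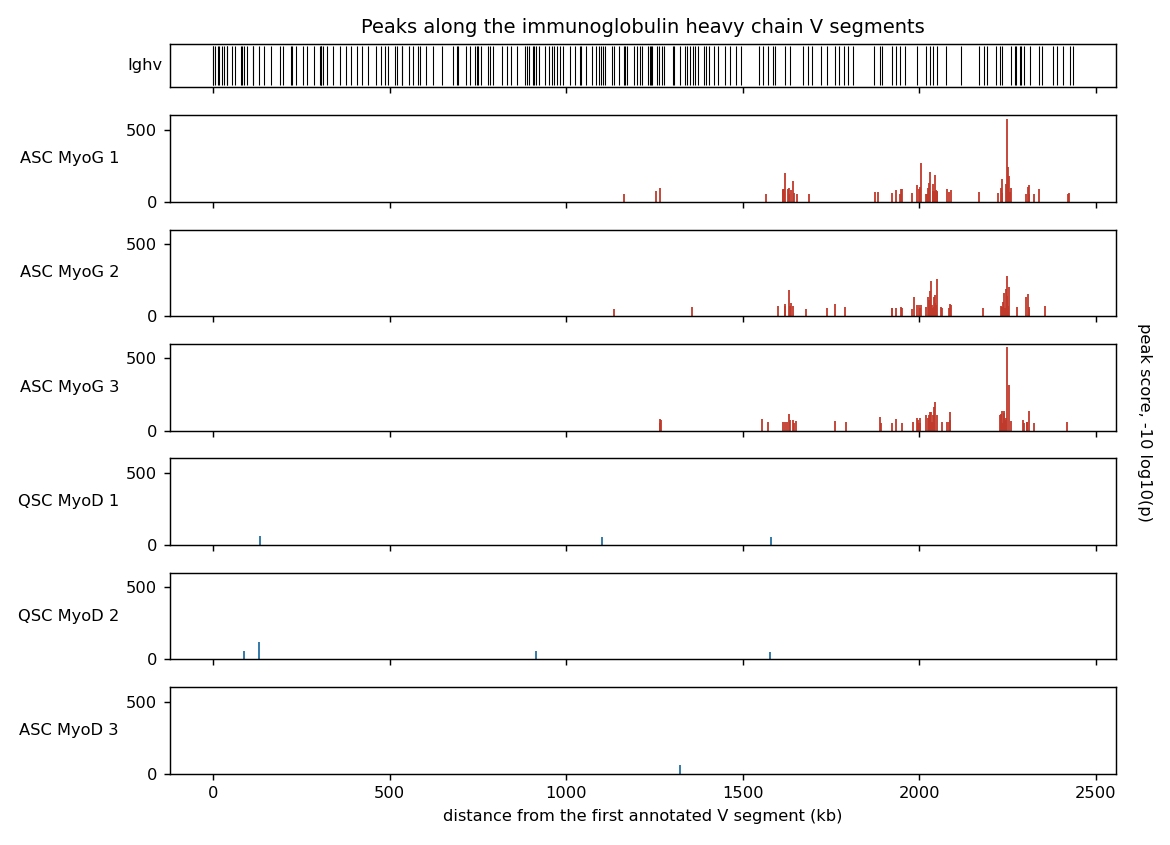
Peaks along the Ighv segments in every library that has any, by distance from the first annotated segment (kb, horizontal) and peak score (vertical, the same scale in each row), with the 183 segments as ticks in the top row. The 3 ASC MyoG libraries place 95.3% to 96.8% of their peaks in the last 1 Mb, and the other 3 libraries shown hold 3, 4 and 1 peaks.

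Ighv1 and Ighv8, the subfamilies that fill this end, carried the ASC MyoG peaks. Ighv1 held 142 of them at 32 of its 92 segments (a count that includes the segments of other groups' peaks) and Ighv8 held 49 at 5 of 16. The other subfamilies held none in ASC MyoG. The only other subfamily with a peak was Ighv5, at the opposite end, with 3 peaks, all in QSC MyoD.

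Ighv1-75 held the strongest of all these peaks. Scores are p-values on a log scale (10 times the negative log10 of p, higher being stronger), and the lowest value in the lists is 50.0. In the region chr12:115820152-115824200, some 10 kb from the segment, the highest score was 571.4, 278.95 and 579.48 in ASC MyoG replicates 1 to 3. Ranked by score, this peak stood in place 1, 4 and 2 of all peaks of those lists, and no other library had a peak there. The adjacent region chr12:115825006-115828757 reached 238.94, 203.37 and 318.41. Both regions had a peak in all 3 replicates and the second replicate was the lowest in each.

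Other segments recurred at lower scores. Ighv1-69 reached 188.37, 256.56 and 196.18 with 7, 5 and 5 peaks, and Ighv1-67 206.71, 243.71 and 126.84 with 4, 7 and 6 peaks. Ighv8-11 reached 270.57, 134.52 and 87.78, and Ighv8-14 158.56, 185.92 and 135.12. The order of the 3 replicates differed from segment to segment, so no replicate was the highest throughout. Ighv1-55 (142.36, 179.17 and 112.78), Ighv1-78 (115.18, 151.73 and 134.15), Ighv1-66 (92.3, 130.17 and 104.88) and Ighv1-74 (97.88, 72.75 and 117.66) stood in the next range. Ighv1-54 scored 197.42, 84.38 and 58.62.

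Of the 20 highest peaks of each list, 7, 7 and 4 were at Ighv segments in ASC MyoG. Only 1 of the other lists, QSC MyoD replicate 2, held any there (1 peak). In ASC MyoD the highest peak at any of the multi-copy genes stood in place 387, 296 and 493.

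Of the V segments, Ighv5-12 held the region that recurred in quiescent cells. The region chr12:113703674-113705203 scored 63.89 in QSC MyoD replicate 1 and 117.15 in replicate 2 and was not listed in replicate 3, nor in any ASC list. It lies 1 to 2 kb from the start by the authors' annotation. Ighv1-52 also had a peak in each of these 2 libraries, at 56.88 and 54.04, but at places that did not overlap.

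The light chain had almost nothing. Igkv held 2 peaks, assigned to Igkv13-85 (score 50.53) and Igkv14-100 (54.14). Both were in ASC MyoG replicate 1 and near the lowest score of the lists. Neither lay within 10 kb of the RefSeq span of its gene, and the Igkv13-85 peak was 821502 bp from it.

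Speer4e and Speer4cos, annotated as a transcribed pseudogene, formed the second cluster. They lie at the 2 ends of a 788 kb block (chr5:14924921-15712869), with 6 regions at Speer4e and 9 at Speer4cos. At these genes ASC MyoG held 10, 13 and 8 peaks in the block and QSC MyoD 1 in each replicate, while ASC MyoD and QSC MyoG held none. Between them the block also held peaks assigned to other genes, which brought the ASC MyoG libraries to 42, 39 and 37 peaks and the QSC MyoD libraries to 9, 3 and 5. The totals were 0, 1 and 0 for ASC MyoD and 0, 0 and 2 for QSC MyoG. Of those other peaks, 73 were at Gm21847, 19 at Gm17019, 7 at Gm10354 and 5 at 4930572O03Rik. ASC MyoG exceeded the other groups in every library also for these genes outside the name pattern.

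**Figure D3:**
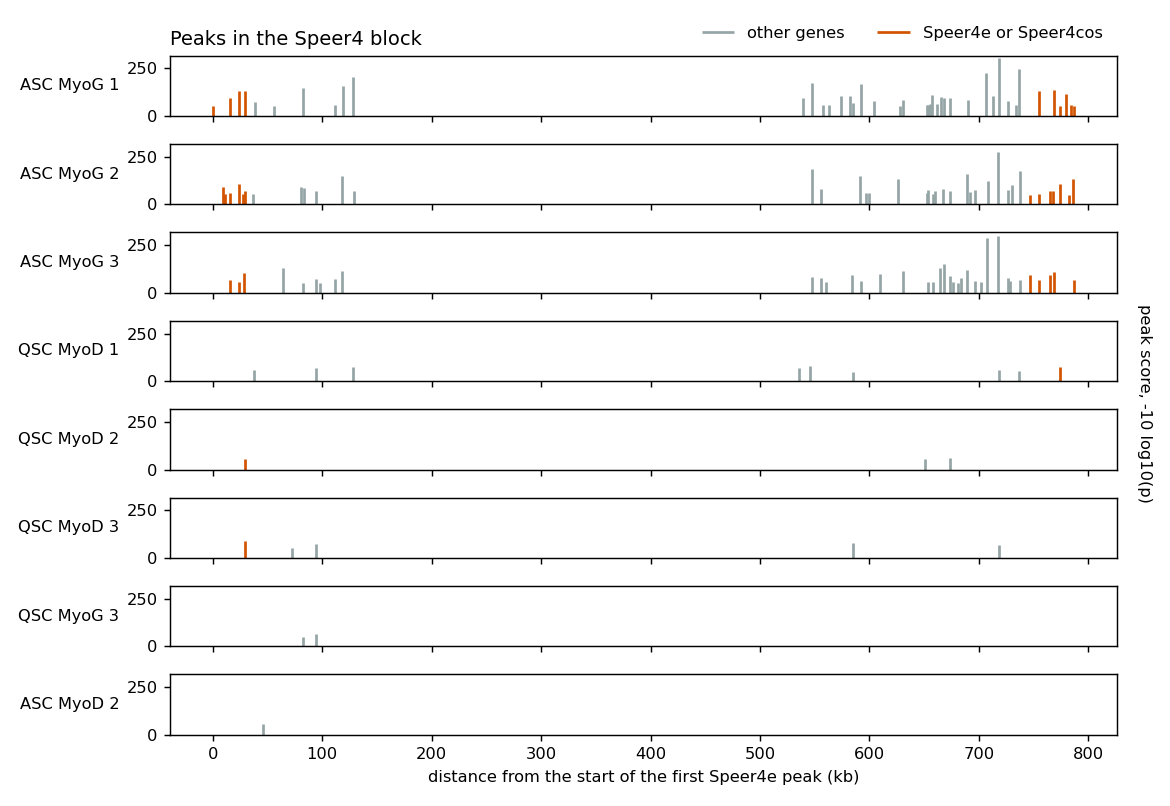
Peaks in the 788 kb block with Speer4e and Speer4cos, by distance from the start of the first Speer4e peak (kb, horizontal) and peak score (vertical, same scale in each row), in the libraries that have any. Orange lines are peaks assigned to Speer4e or Speer4cos and grey lines those of other genes; the ASC MyoG libraries hold 42, 39 and 37 lines in all.

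The region of these families that was shared by the most libraries lay here. The Speer4e region chr5:14951653-14956963 had a peak in 5 libraries: ASC MyoG at 130.51, 68.36 and 102.13, and QSC MyoD replicates 2 and 3 at 54.37 and 87.44. It was listed in neither of the other groups. At Speer4cos, the region chr5:15691715-15694576 scored 136.84, 71.85 and 108.9 in ASC MyoG and chr5:15677760-15682038 scored 128.89, 52.3 and 67.87. Replicate 1 was the highest of ASC MyoG in all 3 of these regions. Speer peaks were also wide, with a median of 2254.5 bp over the lists against 785 bp for Ighv and 617 bp for Olfr. Speer2, on chromosome 16, was assigned 2 peaks in ASC MyoG with a highest score of 60.39, the farther of them 440317 bp from the gene.

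Olfactory receptors were spread over 11 chromosomes and seldom recurred. Their 43 peaks made 38 regions, of which 4 had a peak in at least 2 libraries, and 19 of the 43 peaks were in ASC MyoD (7, 6 and 6) and 16 in ASC MyoG (3, 8 and 5), while quiescent cells held 3 for MyoD and 5 for MyoG. Olfr1331 was the strongest, at 136.67, 137.79 and 104.32 in the ASC MyoD replicates (chr4:118862368-118863312) and in no other library. It was annotated as a promoter at 1 to 2 kb, yet the RefSeq span of the gene begins 5471 to 5632 bp from the peaks. Olfr985 (chr9:40116696-40117687) scored 120.13 and 96.77 in ASC MyoD replicates 1 and 3, and Olfr225 (chr11:59635813-59636765) scored 92.36 and 52.04 in the same replicates. Both were missing from replicate 2 and lay distal, at 9237 to 9485 and 21588 to 21771 bp from the gene. Olfr16, a receptor also known from studies of muscle cell migration, had 1 peak, in ASC MyoD replicate 1, with a score of 66.55 at 2436 bp from the gene, and is named here after its value was seen. Olfr532 (chr7:140438229-140439170) was the single region of the families that recurred in QSC MyoG, at 52.96 and 50.53 in replicates 1 and 3, close to the lowest score.

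Vomeronasal receptors gave 15 peaks at Vmn1r and 19 at Vmn2r genes. Vmn1r238 (chr18:3117323-3119994) scored 51.39 and 57.55 in QSC MyoD replicates 1 and 2 and 97.59 in QSC MyoG replicate 1. The pseudogene Vmn2r-ps15 (chr4:145776915-145780307) scored 55.04 and 66.27 in QSC MyoD replicates 1 and 3 and 60.42 in QSC MyoG replicate 3. Both regions were thus shared by MyoD and MyoG lists of quiescent cells and were in no list of activated cells. Vmn2r117 had the highest Vmn2r score, 88.01, in QSC MyoG replicate 3. Vmn1r235 had 3 peaks in 3 libraries at different places, with scores of 55.29 to 70.82.

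Among the smaller families, a single region had a peak in more than 1 library. It lay at Defb25, a beta-defensin gene (chr2:152620355-152621380), and scored 55.65, 81.09 and 78.74 in the ASC MyoD replicates and in no other library, 976 to 995 bp from the gene. The 8 Mup peaks were all in ASC MyoG (3, 3 and 2), at 8 separate regions, with Mup17 at 170.78 in replicate 1 the highest. Defa21, an alpha-defensin, was assigned 2 peaks in ASC MyoG at separate places (100.17 and 54.72), neither within 10 kb of the gene. Klra4 had 4 peaks at separate places in 3 libraries, at 50.65 to 63.49, and Klra17 the peak at 80.55 whose promoter is printed above. The 6 Prame-like genes were assigned 1 peak each, at most 61.28 (Pramel50, with its peak 74725 bp from the gene).

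Regions were next called by recurrence. Consensus regions are those listed for 2 or 3 replicates of their group, and a region is state-specific when it also has no peak in the other state for the same factor. In MyoD, of the 36 regions at the multi-copy genes 4 were consensus in ASCs and 4 in QSCs (11.1% each), against 44.3% and 0.914% of all 4488 MyoD regions. The 4 ASC regions were all ASC-specific (all regions 44.0%) and were Olfr1331, Defb25, Olfr985 and Olfr225. The 4 QSC regions were all QSC-specific (all regions 0.780%) and were Ighv5-12, Vmn1r238, Vmn2r-ps15 and Speer4e. The share lay under that of all regions in activated cells and over it in quiescent cells, on counts of 4 that used the same peaks as the choice of genes. Leaving out a library and keeping the rule of 2 peaks gave 2 ASC regions without ASC MyoD replicate 1 or 3, and 1, 1 and 2 QSC regions without QSC MyoD replicates 1, 2 and 3.

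In MyoG, 53 of 189 regions (28.0%) were consensus in ASCs, against 10.1% of all 2198 MyoG regions, and 1 in QSCs, against 0.455%. All 53 were ASC-specific (all regions 9.42%), 44 at Ighv and 9 at Speer, over 17 genes, and 27 of them had a peak in all 3 replicates. They were 25.6% of the 207 ASC-specific MyoG regions of the genome. The QSC-specific region was Olfr532 (all regions 0.136%). Without ASC MyoG replicate 2 or 3 the count was 35. The QSC region was lost without QSC MyoG replicate 1 or 3. No olfactory, vomeronasal, Mup, defensin, Klra or Prame region was ASC-specific for MyoG. These shares use the same peaks that chose the genes and are given as a description. Merging also joins peaks through a shared neighbour, so peaks of a region need not overlap each other. At Ighv8-11 (chr12:115575788-115579295), counted in all 3 replicates, those of replicates 2 and 3 did not. With overlap of at least 50% of both peaks, 48 regions were ASC-specific for MyoG. The part of peak crowding in these shares was not tested.

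Recurrence was also counted per library. In ASC MyoD 38.9% ± 14.7 (SD, n = 3) of the peaks at multi-copy genes overlapped a peak of another replicate, against 70.9% ± 2.31 of other peaks. The ASC MyoG libraries had 55.9% ± 4.75 against 24.6% ± 5.33. Quiescent cells had 42.1% ± 8.36 against 24.1% ± 3.14 for MyoD and 13.9% ± 12.7 against 4.88% ± 1.03 for MyoG. In ASC MyoG the value fell to 29.6% without the immunoglobulin segments. The part that the crowding of peaks at Ighv has in this overlap was not tested.

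In ASC MyoD, peaks at the multi-copy genes were narrower than other peaks in each library, with medians of 749, 724 and 674.5 bp against 864, 809 and 775 bp. In ASC MyoG they were wider, with 883, 752 and 715.5 bp against 652, 627 and 659 bp. There Ighv had medians of 875.5, 768 and 754 bp and Speer 2027, 2111 and 2019 bp. The remaining families had 702, 590 and 631.5 bp, wider than other peaks in replicate 1 only. In QSC MyoD peaks at the multi-copy genes were wider as well, with 770, 933 and 1824 bp against 672.5, 729 and 674 bp. Replicate 3, with only 4 peaks, stood apart. In QSC MyoG the medians were 758.5, 622 and 655 bp against 637, 621 and 623 bp. The ratio of the medians averaged 0.877 ± 0.0153 for ASC MyoD and 1.21 ± 0.135 for ASC MyoG (mean ± SD of 3 libraries). Quiescent libraries gave 1.71 ± 0.865 for MyoD and 1.08 ± 0.0980 for MyoG.

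The ASC MyoG ratio turned when only peaks with a score of at least 80 were kept (0.805): such peaks at multi-copy genes had medians of 1122, 1336 and 1136 bp against 1565.5, 1458.5 and 1450.5 bp. A larger part of the peaks at multi-copy genes had a score of at least 80, at 45.1%, 28.7% and 30.4% against 12.6%, 13.7% and 17.2% of other peaks. Median scores in ASC MyoG were 73.87, 63.53 and 64.64 against 55.82, 57.27 and 57.6, and in ASC MyoD 60.06, 60.37 and 56.73 against 75.1, 72.31 and 68.96. Within ASC MyoG the excess was at Ighv (medians 80.83, 69.41 and 72.02) and Speer (92.59, 68.36 and 69.06), and the remaining families had 56.42, 55.34 and 57.05, near other peaks.

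**Figure D4:**
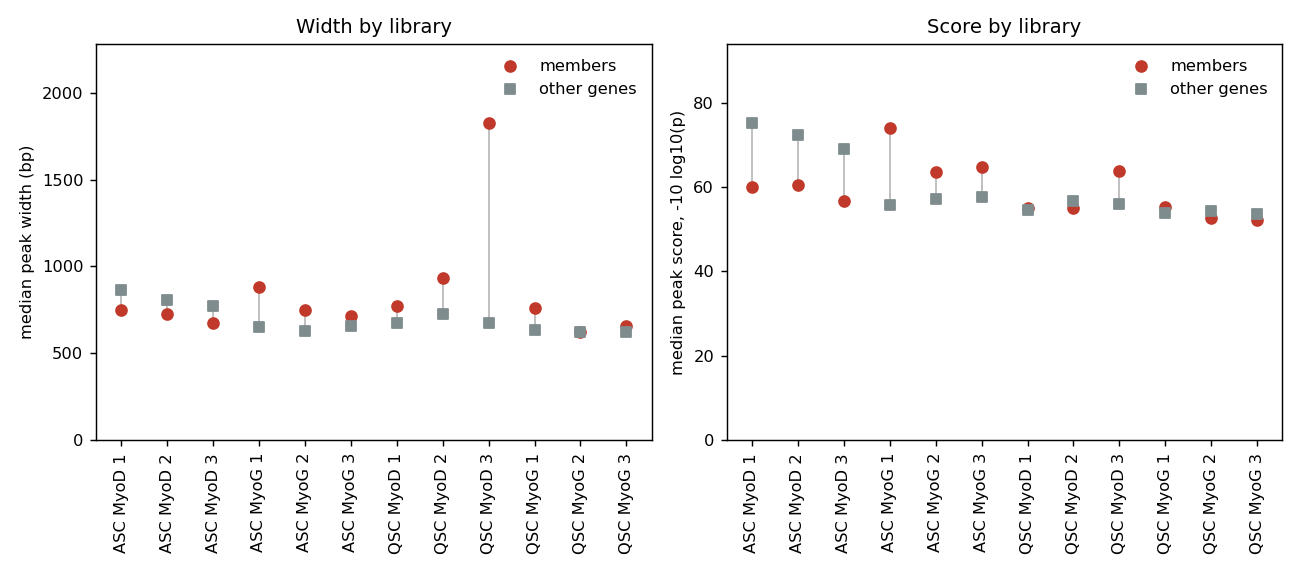
Median peak width (left, bp) and median peak score (right, 10 times the negative log10 of p) in each library, for peaks at the multi-copy genes (circles) and at other genes (squares), without error bars because each point is the median of a single list. In the 3 ASC MyoD libraries the circles lie under the squares in both panels, and in the 3 ASC MyoG libraries above them.

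The regions lay close together. Of the 221 merged regions, 194 (87.8%) had another region of these genes within 1 Mb, 152 (68.8%) within 100 kb and 125 (56.6%) within 10 kb, and the median gap to the nearest was 4808 bp. For the 6336 regions of other genes the shares were 98.0%, 56.4% and 18.2%, with a median gap of 75276 bp, but there are far more of these to lie near. The share of multi-copy regions with a neighbour was thus below that of other regions at 1 Mb and above it at the shorter distances. Without Ighv, 109 regions remained, with 75.2%, 37.6% and 25.7% in those windows and a median gap of 222941 bp.

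Joined at 1 Mb, the 221 regions made 49 clusters, of which 27 were single regions and 2 held at least 10: the Ighv locus with 112 and the Speer4 block with 15. Next came 8 regions at Mup genes on chromosome 4, all in ASC MyoG, 7 at vomeronasal receptors on chromosome 17 and 6 at olfactory receptors on chromosome 9. By group, 89.1% of the 175 ASC MyoG regions had another within 1 Mb, 50.0% of the 16 in QSC MyoD, 25.0% of the 20 in ASC MyoD and 14.3% of the 14 in QSC MyoG. For regions of other genes, the shares were 75.6% in ASC MyoG, 37.6% in QSC MyoD, 95.1% in ASC MyoD and 34.1% in QSC MyoG, so that the multi-copy regions lay above them in the first 2 groups and below them in the last 2. These shares also follow the number of regions in a group, and the part of that number was not tested.

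**Figure D5:**
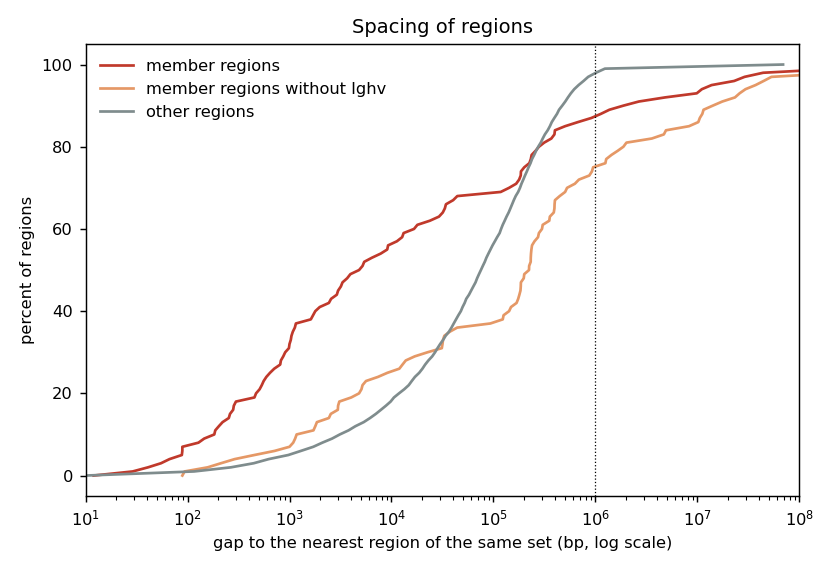
Percent of regions (vertical) whose nearest region of the same set lies within a given gap (horizontal, bp, log scale), for the regions of the multi-copy genes, those without Ighv, and those of other genes. The dotted line marks 1 Mb, where the lines stand at 87.8%, 75.2% and 98.0%, and at 10 kb they stand at 56.6%, 25.7% and 18.2%.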

How the data were processed

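ChIP-seq peak lists of 12 libraries (3 replicates in each of 4 groups, taken from the sample titles) were used. The 2 input libraries were not used here. The study describes 3 biological replicates. Per the labels, the submitters' processing notes name BWA 0.7.5, MACS, deepTools 3.5.0 and the build mm10. The MACS version, the use of input, the handling of multiply matching reads and the tool that assigned genes are not given in the sources used here. The authors deposited 1 list per library with a score (10 times the negative log10 of the p-value, lowest 50.0) and start and end positions (unit: other, in bp, printed as given; whether starts count from 0 or 1 is not stated). Depth is unknown, scores are not scaled between libraries, and a list holds only peaks above its threshold, so no interval or detection limit is given. Columns of samples outside the series numbered 0.

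Families were recognised by symbol. Members and lists were chosen with earlier results of these data known, and no test was made. Peaks of the lists compared were merged when they overlapped by at least 1 bp; MyoD and MyoG lists were merged separately for consensus and state-specific regions, and all 12 together for spacing. Where a region holds several peaks of a library the highest score is given. Width is end minus start. Named genes were those of regions with a peak in at least 2 libraries of a group (up to 12 per group, by number of libraries and mean rank), the genes with most peaks and with the highest score in each family, and those of the most shared regions; other genes named were chosen after their values were seen. Gene spans and promoters came from RefSeq, GRCm38.p6, the assembly of mm10; all 123 symbols matched. Promoter windows of 300 bases were compared with BLAST+ 2.17.0, leaving out windows that overlap. Region calling was tested on 220 simulated regions (ASC MyoG against QSC MyoG). It returned all 100 regions planted as ASC-specific and all 20 planted as QSC-specific. The planted regions lay far apart and each in a single state, so closely spaced peaks such as those at Ighv were not tested. Python 3.11.15, pandas 2.3.3, numpy 2.4.6 and matplotlib 3.10.9 were used. Alternatives were a score of at least 80 (a p-value of 1e-08), V segments left out, chromosomes 1 to 19 and X only, overlap of at least 50% of both peaks, merging across 500 bp, recurrence in all 3 or any 1 of the replicates, a window of 100 kb, medians over libraries and leaving out each replicate. Chosen after seeing the data were a limit of 10 kb to the RefSeq span, leaving out V segments together with Speer, and differences formed within replicate numbers. Where V segments, Speer or peaks beyond 10 kb were left out, their peaks stayed in the lists and counted with peaks at other genes.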

Additional observations from a re-analysis of the deposited data

Results flagged for a closer look

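The share of listed peaks at multi-copy genes moved in opposite directions between states for the 2 factors: ASC minus QSC was -3.84 percentage points for MyoD and 9.95 points for MyoG, and every library of each group lay on that side. Formed within replicate numbers, the differences were -4.92, -4.64 and -1.95 points for MyoD and 6.60, 12.5 and 10.8 points for MyoG. That the effects of state differ between MyoD and MyoG was not tested. The MyoG value was 0.744 points with the immunoglobulin V segments left out, where the libraries overlapped, and the MyoD value was then -2.31 points. With Speer left out as well, the values were -0.842 points for MyoG, again with libraries that overlapped, and -1.68 points for MyoD.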

How the results depend on the processing

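Replicate numbers are not stated to mark shared animals, and no paired test was made. The mean difference within replicate numbers (a replicate block) is by construction that of the group means, -3.84 points for MyoD and 9.95 for MyoG. The planned limit by a distance column could not be run, as the lists hold none. With a score of at least 80, the share of peaks was 0.236% (ASC MyoD), 26.4% (ASC MyoG) and 7.87% (QSC MyoG), the MyoG difference 18.5 points, the width ratio 0.946 in ASC MyoD, 1.36 in QSC MyoG and, reversed, 0.805 in ASC MyoG. The replicated share was then 72.2% in ASC MyoD, 64.7% in ASC MyoG and 0% in both QSC groups. Consensus as well as state-specific regions numbered 2 in ASC MyoD, 24 in ASC MyoG and 0 in both QSC groups. At this score the ASC MyoD libraries held only 3, 2 and 2 peaks at multi-copy genes, against 41, 27 and 28 in ASC MyoG. Those of QSC MyoD held 0, 1 and 1 and those of QSC MyoG 1, 0 and 1. Without V segments, ASC MyoG had a share of 4.08%, a replicated share of 29.6% and 9 consensus and specific regions, the MyoG difference was 0.744 points, and 76.6% of regions had another within 1 Mb. Without V segments and Speer, the share was 2.50% in ASC MyoG and 2.03% in QSC MyoD, and the difference was -1.68 points for MyoD and, reversed, -0.842 for MyoG. Overlap of at least 50% of both peaks gave replicated shares of 41.5% (ASC MyoG), 33.6% (QSC MyoD) and 0% (QSC MyoG), with 0 consensus and specific regions in QSC MyoG, and merging at up to 500 bp gave 62.4% in ASC MyoG. A peak in all 3 libraries left 2, 0, 27 and 0 consensus and specific regions in ASC MyoD, QSC MyoD, ASC MyoG and QSC MyoG, and a peak in at least 1 gave 20, 16, 175 and 14. A window of 100 kb held 68.8%. Within 10 kb of the RefSeq span, the share was 0.295% in ASC MyoD and 2.18% in QSC MyoG, the width ratio 0.918 and 1.54, and QSC MyoG had 0 consensus and specific regions and a replicated share of 0%. Apart from differences that the settings make by construction, causes were not tested. Leaving out each replicate gave 2 to 4 ASC-specific regions for MyoD, 35 to 53 ASC-specific regions for MyoG, 1 to 4 QSC-specific regions for MyoD, 0 to 1 QSC-specific regions for MyoG, 2 to 4 consensus regions in ASC MyoD, 35 to 37 consensus regions in ASC MyoG, 1 to 2 consensus regions in QSC MyoD, 0 to 1 consensus regions in QSC MyoG, 22.2% to 47.2% replicated (ASC MyoD), 41.5% to 45.7% replicated (ASC MyoG), 18.1% to 25.4% replicated (QSC MyoD) and 0% to 20.8% replicated (QSC MyoG). Of 153 values under the other settings 94 counted as unchanged. With a replicate left out 68 of 96 did, and no direction turned there. Unchanged meant a move of less than the spread between replicates or, for counts, of at most 1.5 times. For the share of regions with a neighbour it meant staying within a binomial interval that treats regions as independent, which neighbouring regions are not. The 94 include the replicate-block differences, which are equal by construction.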

Other observations

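Genes outside the name pattern that lie near the multi-copy regions were often predicted genes. Of 9965 peaks at other genes, 475 (4.77%) lay within 1 Mb of a region of the multi-copy genes, and 44.6% of them were at genes with a Gm symbol, against 17.4% of those elsewhere. In ASC MyoG, 206 such peaks (10.9% of the other peaks) were near, with 79.6% at Gm symbols against 36.3% elsewhere. In QSC MyoD, 49 were near, with 40.8% at Gm and 38.8% at Zfp symbols against 28.0% and 16.9% elsewhere. In ASC MyoD, where 203 were near, Gm symbols made up 9.85% against 11.7%. Peaks near each other share their neighbourhood and are not independent.

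The peak numbers given by the authors' caller had gaps in the Ighv span. Between the first and last listed peak of the locus, 4 of 68, 9 of 71 and 8 of 73 numbers were missing in ASC MyoG replicates 1 to 3. In QSC MyoD replicates 1 and 2, 0 of 3 and 0 of 4 were missing, too few to compare. The share missing over the whole lists was not counted.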
